A study of Saccharomyces cerevisiae with 18 samples.

Results

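The salt response of wild-type budding yeast was followed in 6 of the 18 libraries of the series, which were chosen by their labels alone. They are 3 libraries of untreated cells, called basal, and 3 libraries of cells that had spent 15 min in 0.4 M NaCl, called salt. They make up experiment 1. The cells were labelled wild-type (WT) BY4741, a haploid laboratory strain of mating type a, and were in exponential growth in YPD, a rich medium with glucose, in both groups. Per the labels' protocols each group holds biological triplicates, polyadenylated RNA was made into libraries with a TruSeq stranded mRNA kit, and single-end reads of 50 bp were sequenced. The other 12 libraries, experiment 2, were made with another kit (Lexogen CORALL) from WT cells and from cells in which HOG1 is replaced by a KAN cassette. Only the WT libraries of experiment 2 are used here, for a check of strain markers and for a comparison at the end.

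A rise of external NaCl draws water out of the cell and exposes it to sodium. The high osmolarity glycerol (HOG) pathway answers it: membrane sensors start a chain of kinases that ends in the stress-activated kinase Hog1, and cells then make and keep glycerol as an internal osmolyte. Hog1 and, when protein kinase A is low, the factors Msn2 and Msn4 switch on stress genes, while genes for making ribosomes, the largest cost of fast growth, are switched off for a time.

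The labels were first set against marker genes. Genes that mark mating type a were present in all 6 libraries, with STE2, the receptor for alpha factor, at 666 to 810 CPM (counts scaled to the total of each library) in the basal libraries and 388 to 454 in the salt libraries. Of the genes that mark mating type alpha, STE3 reached at most 4.82 CPM, MFALPHA2 at most 2.05 and MFALPHA1 at most 0.542, while SAG1 lay between 50.4 and 56.3 CPM. The nutritional markers LEU2, URA3 and MET17 went against the strain label. BY4741 lacks these genes (MET17 is also called MET15), yet LEU2 held 1987 to 3066 counts per library, URA3 168 to 407 and MET17 2437 to 6434. In the 6 WT libraries of experiment 2 LEU2 and URA3 had 0 counts and MET17 had 2 in all. The WT cells of experiment 1 are therefore called by their label. Their libraries held reads counted to genes that the labelled strain lacks, and the genotype at these loci was not tested.

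Total counts were 11854615, 11205510 and 12920690 in basal libraries 1 to 3 and 13075041, 11230915 and 16133730 in salt libraries 1 to 3. Below, levels are CPM after TMM scaling of the library sizes, and a change is log2 of salt over basal from edgeR's quasi-likelihood test, given with its standard error. A gene is called higher or lower when its p, adjusted by the Benjamini-Hochberg method over 5878 tested genes, is under 0.05, and "rose" and "fell" are used of called genes only. Where CPM values of such a gene are given, its basal libraries all lay on the same side of its salt libraries. Replicates of a group were close: the correlation of log2 CPM across genes was 0.988 to 0.995 within groups and 0.808 to 0.831 between a basal and a salt library. Among 5057 genes with a mean of at least 10 CPM, the median coefficient of variation over 3 replicates was 8.25% in basal and 9.78% in salt libraries. CPM are shares of a library, so these values cannot tell fewer transcripts per cell in all genes from a change of a few abundant ones, and fewer cells with a transcript cannot be told apart from less of it in each cell.

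The promoters of 6 genes show the sequence features to which the largest changes can be compared. Each is the 300 bases that end 100 bases before the start codon, 5′ to 3′ on the strand of the gene, read from the R64 genome, the build the authors used. STL1 is at chrIV:1507605-1507904 (plus strand), CTT1 at chrVII:654234-654533 (plus), HSP12 at chrVI:106856-107155 (plus), TKL2 at chrII:476538-476837 (minus), SYO1 at chrIV:340235-340534 (minus) and NOG1 at chrXVI:370578-370877 (plus). In the first 4, which belong to genes that rose by 7.41 to 12.15 on the log2 scale, capitals mark the stress response element (STRE) AGGGG or its reverse complement CCCCT. In the last 2, which belong to genes that fell, capitals mark the PAC motif GATGAG (reverse complement CTCATC) and the RRPE motif AAAATTT (reverse complement AAATTTT). The latter 2 elements are known from promoters of ribosome assembly genes.
STL1: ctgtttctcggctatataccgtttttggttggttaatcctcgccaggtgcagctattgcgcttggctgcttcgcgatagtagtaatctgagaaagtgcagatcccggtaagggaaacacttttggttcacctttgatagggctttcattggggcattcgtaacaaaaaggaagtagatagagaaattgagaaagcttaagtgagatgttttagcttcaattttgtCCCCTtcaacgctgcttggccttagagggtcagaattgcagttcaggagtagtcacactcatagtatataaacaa
CTT1: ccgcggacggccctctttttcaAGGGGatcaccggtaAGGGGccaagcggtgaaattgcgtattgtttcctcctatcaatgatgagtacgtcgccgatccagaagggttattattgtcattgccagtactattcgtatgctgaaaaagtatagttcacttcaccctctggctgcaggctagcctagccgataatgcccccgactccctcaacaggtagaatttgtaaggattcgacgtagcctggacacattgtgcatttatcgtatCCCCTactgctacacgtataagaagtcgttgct
HSP12: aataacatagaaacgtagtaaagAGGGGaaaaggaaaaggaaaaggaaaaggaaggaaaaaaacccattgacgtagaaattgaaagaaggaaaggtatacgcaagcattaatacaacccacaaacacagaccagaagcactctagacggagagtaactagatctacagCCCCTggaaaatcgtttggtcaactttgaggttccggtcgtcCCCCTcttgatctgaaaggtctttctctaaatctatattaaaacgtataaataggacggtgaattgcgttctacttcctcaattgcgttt
TKL2: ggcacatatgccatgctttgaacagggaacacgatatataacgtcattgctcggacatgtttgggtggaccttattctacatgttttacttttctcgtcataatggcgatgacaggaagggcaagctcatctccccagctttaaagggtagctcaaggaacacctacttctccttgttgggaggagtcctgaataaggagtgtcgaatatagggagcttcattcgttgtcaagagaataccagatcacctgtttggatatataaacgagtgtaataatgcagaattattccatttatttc
SYO1: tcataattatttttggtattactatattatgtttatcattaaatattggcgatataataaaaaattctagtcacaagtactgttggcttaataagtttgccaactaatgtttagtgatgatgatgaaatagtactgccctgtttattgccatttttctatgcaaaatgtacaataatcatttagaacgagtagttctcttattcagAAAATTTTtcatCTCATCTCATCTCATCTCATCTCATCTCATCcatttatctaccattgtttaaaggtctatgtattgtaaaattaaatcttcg
NOG1: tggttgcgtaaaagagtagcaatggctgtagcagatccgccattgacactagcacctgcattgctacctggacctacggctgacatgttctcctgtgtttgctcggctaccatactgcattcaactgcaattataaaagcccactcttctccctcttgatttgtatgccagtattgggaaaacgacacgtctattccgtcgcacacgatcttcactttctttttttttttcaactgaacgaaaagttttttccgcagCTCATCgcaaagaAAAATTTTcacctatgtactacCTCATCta
STL1 holds 1 STRE in this window, CTT1 and HSP12 hold 3 each, and TKL2 holds 0 although it rose by 8.57. CTT1 and TKL2, which rose, also hold 1 PAC match each, left in small letters above. SYO1 holds 6 PAC matches, all in 1 tandem run in which neighbouring matches overlap by 1 base, and NOG1 holds 2. Each also holds 2 RRPE matches that overlap within a single AAAATTTT, because that octamer reads as the motif on both strands.

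The motifs were distributed unevenly over the whole response. The STRE was found on either strand in 1409 of all 5987 promoters of the same length in the annotation (23.5%) and in 23.9% of the 5607 whose genes were tested. Among genes that rose at least 16-fold, 63 of 76 promoters (82.9%) held it, and 41 of the 76 held 2 or more. The share was 64.8% for genes that rose 4- to 16-fold, 41.4% for 2- to 4-fold, 19.7% for genes under 2-fold or not called and 15.0% for genes that fell at least 4-fold. The motifs PAC and RRPE had the opposite pattern. PAC was present in 51.7% of the 294 promoters of genes that fell at least 4-fold against 18.3% of all tested, and RRPE in 66.0% against 25.1%. In the list of 60S subunit assembly factors, 57 of 61 promoters held RRPE and 42 held PAC. TGACGT, the core of the site bound by Sko1 (a repressor and activator of Hog1 targets), was in 18 of the 76 promoters (23.7%) of the genes with the largest rises and in 8.54% of all tested promoters. These are matches of letters and were not tested as binding sites.

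**Figure D1:**
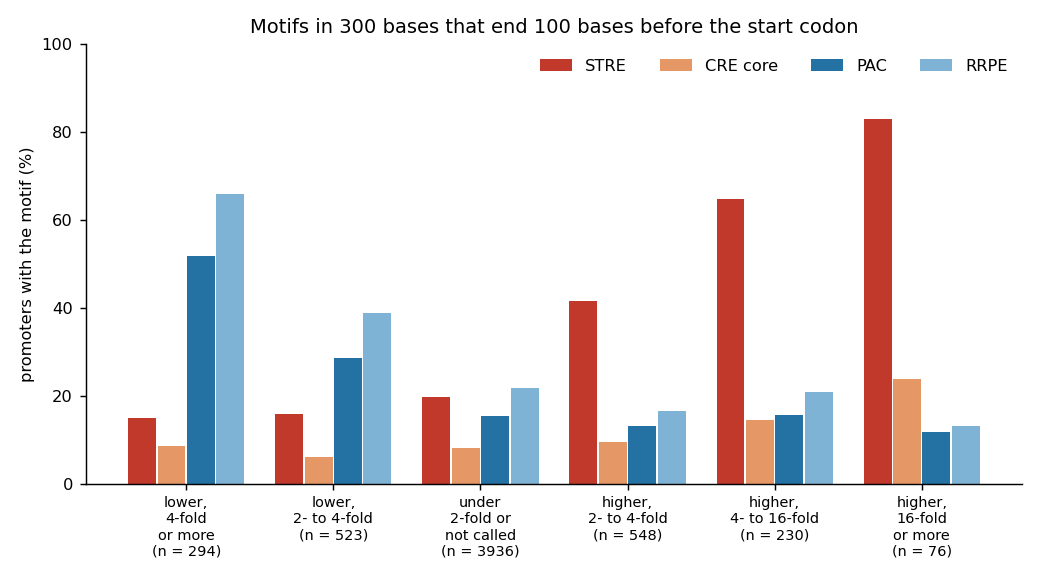
Share of promoters (vertical axis, percent) with at least 1 match to each of 4 motifs in the same 300-base window, by class of salt change (horizontal axis, with the number of promoters). The STRE share climbs from 15.0% in the class that fell most to 82.9% in the class that rose most, and PAC and RRPE run the other way.

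Most of the transcriptome moved. Of 5878 genes tested, 4069 were called (69.2%), with 2082 higher (35.4%) and 1987 lower (33.8%), and in 4196 genes (71.4%) the 3 basal and the 3 salt libraries did not overlap. At least 2-fold rises were called in 921 genes (15.7%) and at least 2-fold falls in 844 (14.4%). The rises reached further than the falls. A 16-fold change was passed by 91 genes upward and 37 downward, a 64-fold change by 31 and 1, and a 256-fold change by 8 and 0. The median change over all tested genes was 0.02, and 870 called genes changed by less than 0.5 on the log2 scale. Among the 1809 genes that were not called, 1037 had a 95% interval within 0.5 of 0. All counts of members in the gene lists below are read against these shares, since 35.4% of all tested genes were higher and 33.8% lower.

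The make-up of the RNA pool differed widely between the groups. The genes that rose at least 2-fold held 4.55%, 4.55% and 4.49% of the counts in the basal libraries and 30.7%, 31.5% and 31.4% in the salt libraries. The genes that fell at least 2-fold held 28.4% to 29.2% in basal and 9.46% to 9.52% in salt libraries. Both sets, and the 10 genes of largest gain and of largest loss below, were chosen by their changes in these same libraries. The direction of each shift was thus fixed by the choice, and its size is a description. The 10 genes with the largest gain in CPM were GPD1, HXT1, GLK1, SED1, CTT1, TPS2, STL1, ALD6, CWP1 and GPP2. Together they went from 0.705% to 0.801% of the counts in the basal libraries to 8.58% to 8.79% in the salt libraries. They make glycerol and trehalose, carry and phosphorylate hexose, oxidise acetaldehyde, break down hydrogen peroxide, take up glycerol and coat the cell wall. The 10 with the largest loss went from 7.60% to 8.15% down to 3.42% to 3.74%, and PMA1, YEF3, RPL3, ASC1, PDC1, RPS2, RPS31, SSB1 and GAS1 are among them. RPL3, ASC1, RPS2 and RPS31 encode parts of the ribosome, Ssb1 and Yef3 work on it, and Pma1 is the proton pump of the plasma membrane. The call of PDC1 (-0.38 ± 0.16) was lost in 7 alternative fits, among them those without basal replicate 2 or 3 or salt replicate 2 or 3 (-0.38, -0.30, -0.32 and -0.36).

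**Figure D2:**
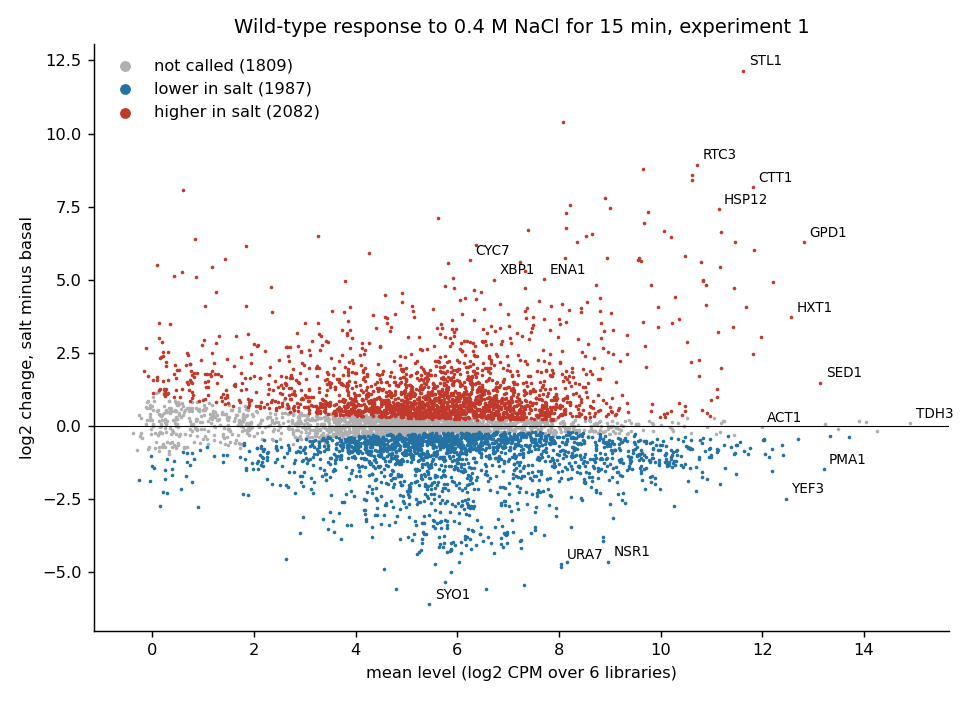
Change of each of 5878 tested genes (vertical axis, log2 of salt over basal) against its mean level (horizontal axis, log2 CPM over the 6 libraries), with the 2082 genes called higher in red, the 1987 called lower in blue and the 1809 not called in grey. Rises reach 12.15 (STL1) and falls -6.10 (SYO1).

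The steepest rise was that of STL1, the glycerol and proton symporter of the plasma membrane. Its basal libraries held 1.90, 0.886 and 1.31 CPM and its salt libraries 7087, 6090 and 5798 CPM, a change of 12.15 ± 0.25. Per kilobase of gene, STL1 went from rank 5553 to rank 51 among 5607 protein-coding genes. YNL194C, a membrane protein of the Sur7 family with no standard name, followed with 0.317 to 0.443 CPM basal and 494 to 598 CPM salt (10.40 ± 0.18). RTC3 rose from 5.57 to 8.55 CPM to 3091 to 3678 CPM (8.93 ± 0.20), and FMP48, which encodes a mitochondrial protein, from 3.40 to 3.85 CPM to 1569 to 1616 CPM (8.80 ± 0.15). TKL2, a transketolase of the pentose phosphate pathway, went from 6.73, 8.06 and 9.92 CPM to 3591, 2826 and 2951 CPM. In each of these genes the lowest salt library lay more than 64-fold above the highest basal library.

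The rest of the 20 genes with the largest rises had varied roles. ALD3, a cytosolic aldehyde dehydrogenase, rose by 8.42 ± 0.17, and CTT1, the cytosolic catalase, by 8.16 ± 0.17 from 24.2, 24.6 and 26.7 CPM to 7954, 6783 and 6831 CPM. HXT5, a hexose transporter of slow-growing cells, rose by 7.81 ± 0.15. DDR2 (7.57 ± 0.15), HSP12 (7.41 ± 0.15) and SPI1 (6.47 ± 0.16) encode small stress proteins of the cell, the membrane and the wall. PUT4, the proline permease, rose by 7.28 ± 0.17 from 2.93 to 4.34 CPM to 485 to 621 CPM, and MPC3, a subunit of the mitochondrial pyruvate carrier, by 6.72 ± 0.13. BDH2, related to butanediol dehydrogenase, rose by 6.55 ± 0.14. FMP45, another Sur7 relative, rose by 7.45 ± 0.14, NQM1 and SOL4, copies of pentose phosphate enzymes, by 7.30 ± 0.17 and 6.77 ± 0.14, and GPP2, a glycerol-3-phosphatase, by 6.29 ± 0.14. PHM7 (6.95 ± 0.15), HBT1 (6.67 ± 0.18) and MSC1 (6.63 ± 0.15) complete the 20.

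Of the 20 steepest falls, 13 were in genes of ribosome assembly. SYO1, the chaperone that brings a pair of 60S ribosomal proteins into the nucleus together, went from 88.6, 85.7 and 85.2 CPM to 0.759, 1.2 and 1.66 CPM (-6.10 ± 0.18). It was the only tested gene to fall past 64-fold. UTP23, RRP12 and MRD1, which process precursors of the 40S subunit, fell by 5.58 ± 0.22, 5.45 ± 0.11 and 5.00 ± 0.17. NOG2 and NOG1, GTPases of 60S assembly, fell by 5.57 ± 0.13 and 4.84 ± 0.12, with NOG1 at 497, 511 and 529 CPM in basal and 20.8, 16.8 and 16.2 CPM in salt libraries. NSR1, the yeast nucleolin, went from 930, 913 and 1041 CPM to 38.8, 34.4 and 41.3 CPM (-4.65 ± 0.12), which moved it per kilobase from rank 257 to rank 3019. RRS1, KRE33, ENP2, SSF1, NOC2 and SPB1, all assembly factors too, fell by 4.25 to 4.72. Outside ribosome assembly stood the tRNA methyltransferases TRM11 (-5.34 ± 0.16) and TRM2 (-4.35 ± 0.13), the CTP synthase URA7 (-4.73 ± 0.10), the surface metal reductase FRE1 (-4.67 ± 0.16), and RFU1 (-4.91 ± 0.24), SFG1 (-4.66 ± 0.14) and GFD2 (-4.39 ± 0.19). In all 40 genes of largest change the basal and salt libraries did not overlap, which the choice of these genes required.

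**Figure D3:**
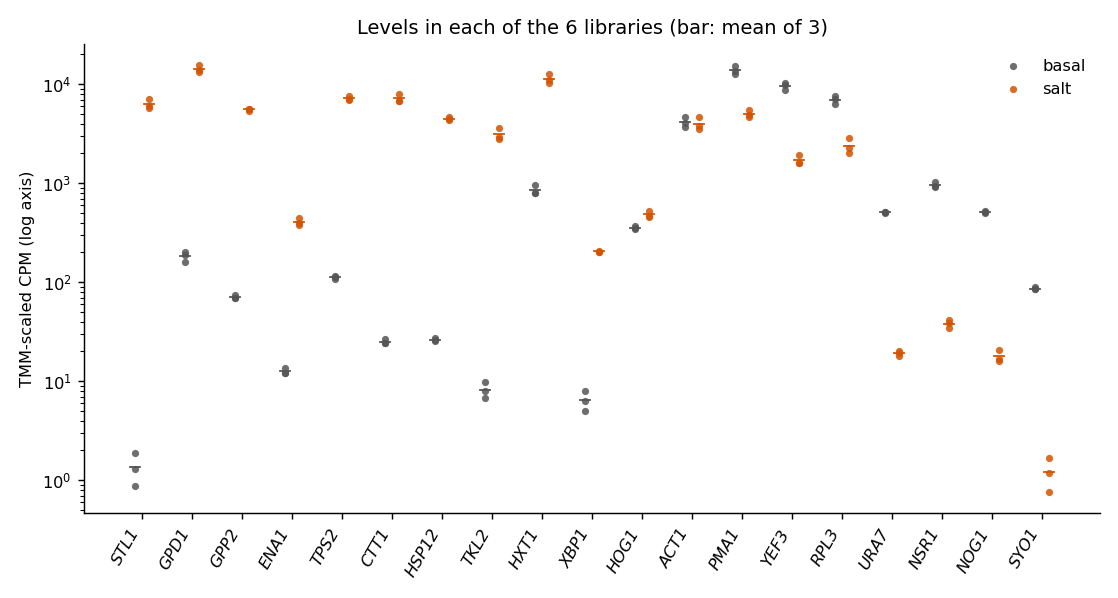
Levels of 19 genes in each library (vertical axis, TMM-scaled CPM, log axis), with basal libraries in grey, salt libraries in orange and a bar at the mean of 3 libraries. The groups stand apart in every gene drawn except ACT1, whose libraries lie between 3564 and 4666 CPM.

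The genes for components of the HOG pathway changed in both directions, from -1.71 to 1.37. Of 16 sensors and kinases, 7 rose, 8 fell and 1 was not called, with a median of -0.24. HOG1 itself rose from 342, 353 and 374 CPM to 527, 472 and 459 CPM (0.45 ± 0.10), and PBS2, the kinase that activates it, from 77.5 to 80.2 CPM to 94.1 to 109 CPM (0.36 ± 0.09). SSK1, the response regulator of the Sln1 branch, rose most (42.1, 46.3 and 41.7 CPM to 108, 111 and 118 CPM, 1.37 ± 0.09). SLN1, the osmosensing histidine kinase, fell (-0.59 ± 0.10), as did SSK22 (-1.71 ± 0.16), one of the kinases that Ssk1 activates, whereas its partner SSK2 was not called (-0.11, 95% interval -0.48 to 0.26). In the Sho1 branch the sensor SHO1 fell from 81.6 to 89.4 CPM to 30.9 to 33.1 CPM (-1.39 ± 0.09). Its companions MSB2, HKR1, CDC42 and STE20 also fell, by 0.39 to 0.62, while STE11 (0.61 ± 0.12), STE50 (0.70 ± 0.12) and OPY2 (0.67 ± 0.10) rose. The calls of CDC24 (0.29 ± 0.09), YPD1 (-0.37 ± 0.13) and HKR1 (-0.39 ± 0.11) were each lost under at least 1 alternative fit: CDC24 without basal replicate 2 (0.25) or salt replicate 3 (0.23) and with the replicate block (0.29), and YPD1 without basal replicate 1 (-0.25) or 2 (-0.36) or salt replicate 3 (-0.31). Scaling by total counts ended all 3 calls (0.28, -0.39 and -0.40).

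Listed phosphatases of MAP kinases, the class of kinases to which Hog1 belongs, were mixed as well. PTP2 and PTP3, the tyrosine phosphatases that act on Hog1, rose by 1.06 ± 0.12 and 0.85 ± 0.12, with PTP2 at 19 to 24.4 CPM basal and 43.8 to 48.1 CPM salt. PTC1 rose by 0.38 ± 0.11 and PTC2 fell by 0.50 ± 0.10, and both encode serine and threonine phosphatases. PTC3 (0.13, interval -0.06 to 0.31) and the adaptor NBP2 (0.26, interval -0.10 to 0.62) were not called. NBP2 was called without salt replicate 1 (0.39). MSG5 was called lower (-0.25 ± 0.10), and that call was lost in 9 of 12 alternative fits, including those without any 1 library other than salt replicate 1 (-0.27 to -0.19).

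Transcription factors of the stress response rose more often than they fell, with 13 of 20 higher, 1 lower and a median of 0.43. XBP1, a repressor of cell cycle genes, went from 4.99, 6.29 and 7.95 CPM to 202, 204 and 208 CPM (5.00 ± 0.14). USV1 rose by 4.30 ± 0.13, CIN5, a Yap family factor of salt tolerance, by 3.98 ± 0.13 and GIS1 by 2.38 ± 0.11. Of the factors known as substrates of Hog1, SKO1 (0.45) and SMP1 (0.40) rose by less than 0.5 and HOT1 was not called (0.16). MSN2 rose from 56.6 to 65.5 CPM to 200 to 214 CPM (1.74), whereas its paralog MSN4 was at 57.6 to 62.2 CPM basal and 58.5 to 63.2 CPM salt and was not called (0.02, interval -0.17 to 0.22). SKN7 was the only factor of the list to be called lower (-0.49).

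Genes of protein kinase A signalling, the pathway that carries the glucose signal, changed more than the HOG pathway. Of 21, 14 rose and 3 fell, and the median was 1.01. Of the catalytic subunits, TPK2 rose from 38.9, 39.6 and 41.2 CPM to 235, 197 and 202 CPM (2.40 ± 0.10) and TPK3 fell by 0.64. BCY1, the regulatory subunit that holds the kinase inactive, rose by 1.59. YAK1 and RIM15, kinases that protein kinase A restrains, rose by 3.17 ± 0.09 and 1.06. The GTPases that feed the pathway split, with RAS1 going from 116 to 125 CPM to 18.7 to 22.3 CPM (-2.55 ± 0.10) and RAS2 from 105 to 117 CPM to 257 to 329 CPM (1.41).

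All 4 genes of glycerol synthesis rose, and the inducible copy of each pair rose most. GPD1, the glycerol-3-phosphate dehydrogenase, went from 159, 201 and 188 CPM to 15521, 13223 and 13935 CPM (6.28 ± 0.18), and its paralog GPD2 from 205 to 248 CPM to 271 to 340 CPM (0.39 ± 0.11). Per kilobase GPD1 climbed from rank 881 to rank 9. GPP2 went from 69.5 to 73.9 CPM to 5369 to 5665 CPM, and GPP1 from 1072 to 1160 CPM to 5874 to 6318 CPM (2.46 ± 0.13). Together the 4 genes took 0.157% to 0.164% of the counts in basal and 2.52% to 2.72% in salt libraries. Genes for taking up and breaking down glycerol rose too, with 9 of 14 higher and 2 lower: besides STL1, DAK1, a dihydroxyacetone kinase, rose by 3.66 ± 0.14, GUT2, the mitochondrial glycerol-3-phosphate dehydrogenase, by 2.91 ± 0.11 and GCY1, a reductase of the glycerol route, by 2.17 ± 0.11. FPS1, the channel through which glycerol leaves, was not called (-0.10).

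Among genes of ion transport ENA1 changed most. This sodium pump rose from 12, 13.6 and 12.1 CPM to 441, 401 and 379 CPM (5.01 ± 0.11), and its near-identical neighbours make counts of this family uncertain. ENA5 fell by 0.36 and NHA1, the sodium and proton exchanger of the plasma membrane, by 0.39. Vacuolar calcium and sodium transporters rose, with PMC1 at 1.90 ± 0.09, VNX1 at 1.27 and VCX1 at 1.16. TRK1, the main potassium importer, fell by 0.93, and PMA1, the proton pump of the plasma membrane, went from 12807, 13519 and 15269 CPM to 5441, 4898 and 4629 CPM (-1.47 ± 0.14). PMP2, a small regulator of Pma1, fell by 1.95 ± 0.26. Of 22 tested genes of ion transport and calcineurin, 13 rose and 6 fell, and their summed share went from 1.55% to 1.62% down to 0.792% to 0.825%, most of it PMA1.

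Reserve carbohydrate genes rose almost to the last one, and those that break the reserves down rose along with those that make them. All 7 trehalose genes rose: TPS2, which finishes trehalose, from 108, 116 and 113 CPM to 7676, 6902 and 7101 CPM (6.01 ± 0.15), the regulatory subunit TSL1 by 5.43 ± 0.15, the synthase TPS1 by 4.72 ± 0.16 and TPS3 by 2.65 ± 0.11. The trehalases NTH1, ATH1 and NTH2 rose by 3.24 ± 0.10, 3.02 ± 0.09 and 1.57 ± 0.09. The list as a whole took 0.0684% to 0.0742% of basal counts and 1.88% to 1.93% of salt counts. For glycogen, 11 of 13 genes rose and 0 fell, with a median of 3.55: the phosphoglucomutase PGM2 (5.81 ± 0.15), the synthase GSY1 (4.82 ± 0.14), the branching enzyme GLC3 (4.02 ± 0.12) and the debranching enzyme GDB1 (4.03 ± 0.11) lead, and GPH1, the phosphorylase, rose by 3.57. Of the trehalose and glycogen promoters, 6 of 7 and 10 of 13 held a STRE.

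Glucose entry and phosphorylation changed by isoform. HXT1, a low-affinity transporter, rose from 801, 795 and 966 CPM to 12581, 10998 and 10184 CPM (3.72 ± 0.16), while HXT3, another low-affinity transporter, fell from 1924 to 2394 CPM to 285 to 366 CPM (-2.74 ± 0.14). HXT2 fell by 1.46 and HXT7 rose by 1.92, but members of this family share long stretches of sequence and their counts are uncertain to that extent. GLK1, the glucokinase, rose from 250, 326 and 319 CPM to 10835, 7997 and 8508 CPM (4.93 ± 0.19), and HXK1 and EMI2 rose by 4.13 ± 0.15 and 4.06 ± 0.15. HXK2, the hexokinase of glucose growth, was not called (-0.03, interval -0.32 to 0.26). PFK26 and FBP26, which set fructose-2,6-bisphosphate, rose by 1.87 ± 0.12 and 2.05 ± 0.11. By contrast only 3 of 14 enzymes of the glycolytic trunk rose, all minor isoforms (PYK2 2.00 ± 0.14, TDH1 1.51 ± 0.14, ENO1 0.99 ± 0.16), 4 fell by 0.35 to 0.49, and the trunk held 11.1% to 12.8% of counts in basal and 11.2% to 12.8% in salt libraries. TDH3 had the highest level per kilobase in both groups (24983, 30442 and 34233 CPM basal, 38591, 28618 and 27715 CPM salt).

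Of 13 enzymes of pyruvate, ethanol and acetate 8 rose and 4 fell. ALD3, ALD4 and ALD6, aldehyde dehydrogenases, rose by 8.42 ± 0.17, 4.99 ± 0.14 and 3.05 ± 0.13, whereas the mitochondrial ALD5 fell by 1.42 and ADH3, the mitochondrial alcohol dehydrogenase, by 1.11. ALD6 was already high, at 799 to 912 CPM basal, and reached 6977 to 7345 CPM. ADH1, the main alcohol dehydrogenase, was not called (-0.11). In the pentose phosphate pathway 7 of 13 genes rose, among them GND2 (3.82 ± 0.12), and 3 fell. The citrate and glyoxylate cycles had 16 of 21 genes higher and 0 lower with a median of 0.95, led by SDH1 (1.99 ± 0.11), ICL1 (1.91 ± 0.09) and CIT1 (1.77 ± 0.09). Fatty acid oxidation rose in 13 of 15 genes at low levels: POT1, the thiolase, went from 1.48 to 2.61 CPM to 12.8 to 17.3 CPM (2.89 ± 0.23). Of 34 genes of the respiratory chain and ATP synthase, 14 rose and 4 fell (41.2% and 11.8%). Factors that set glucose repression moved with 10 higher and 2 lower of 19, including ADR1 (2.01 ± 0.10), NRG1 (2.13 ± 0.13) and CAT8 (1.63 ± 0.23), activators and repressors of genes for other carbon sources, and MIG2 fell by 1.16.

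Pairs of related genes were compared by their ratio. Among 39 pairs that encode the same kind of product, the log2 ratio of the pair did not overlap between basal and salt libraries in 38, and the first-named gene gained on the second in 31 of them. The pairs and the order within them were set with the values known, so both counts are a description. For single genes the share without overlap was 71.4%, and no share was computed for other pairs. With 3 libraries against 3, an exact permutation test cannot give a two-sided p below 0.1, so no test of single ratios was made. In 10 pairs both genes were called and went opposite ways. CYC7, the cytochrome c of low oxygen, went from 3.32, 2.83 and 2.62 CPM to 154, 165 and 128 CPM (5.66 ± 0.15), while CYC1, the cytochrome c of respiring cells, went from 72.0, 63.6 and 73.4 CPM to 12, 11.7 and 11.6 CPM (-2.57 ± 0.11). The log2 ratio of CYC7 to CYC1 was thus -4.75 to -4.4 in basal and 3.46 to 3.80 in salt libraries. URA8 rose by 1.11 and URA7 fell (-4.73), both being CTP synthases, so that their log2 ratio moved from between -2.47 and -2.21 to between 3.30 and 3.78.

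The same opposite movement was seen in TKL2 and TKL1 (8.57 and -0.74), GND2 and GND1 (3.82 and -0.96), NDE2 and NDE1 (3.17 and -1.15), TSA2 and TSA1 (1.83 and -0.65), PYK2 and CDC19 (2.00 and -0.35), PMA2 and PMA1 (0.71 and -1.47), GSC2 and FKS1 (0.67 and -1.22), and RAS1 and RAS2. These are transketolases, phosphogluconate dehydrogenases, external NADH dehydrogenases, peroxiredoxins, pyruvate kinases, proton pumps, glucan synthases and the GTPases above. In the first 7 of these pairs the gene that rose had the lower basal level per kilobase of gene. In some pairs the abundant copy was not called while its partner rose: TAL1 (0.03) beside NQM1 (7.30), SOL3 (-0.03) beside SOL4 (6.77), SSE1 (-0.03) beside SSE2 (3.66) and PGM1 (-0.24) beside PGM2 (5.81). The pair PTP3 and PTP2, which rose together, was the only 1 whose ratio overlapped between the groups. Because similar copies can share reads, these ratios are exact only where the counting kept the copies apart.

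**Figure D4:**
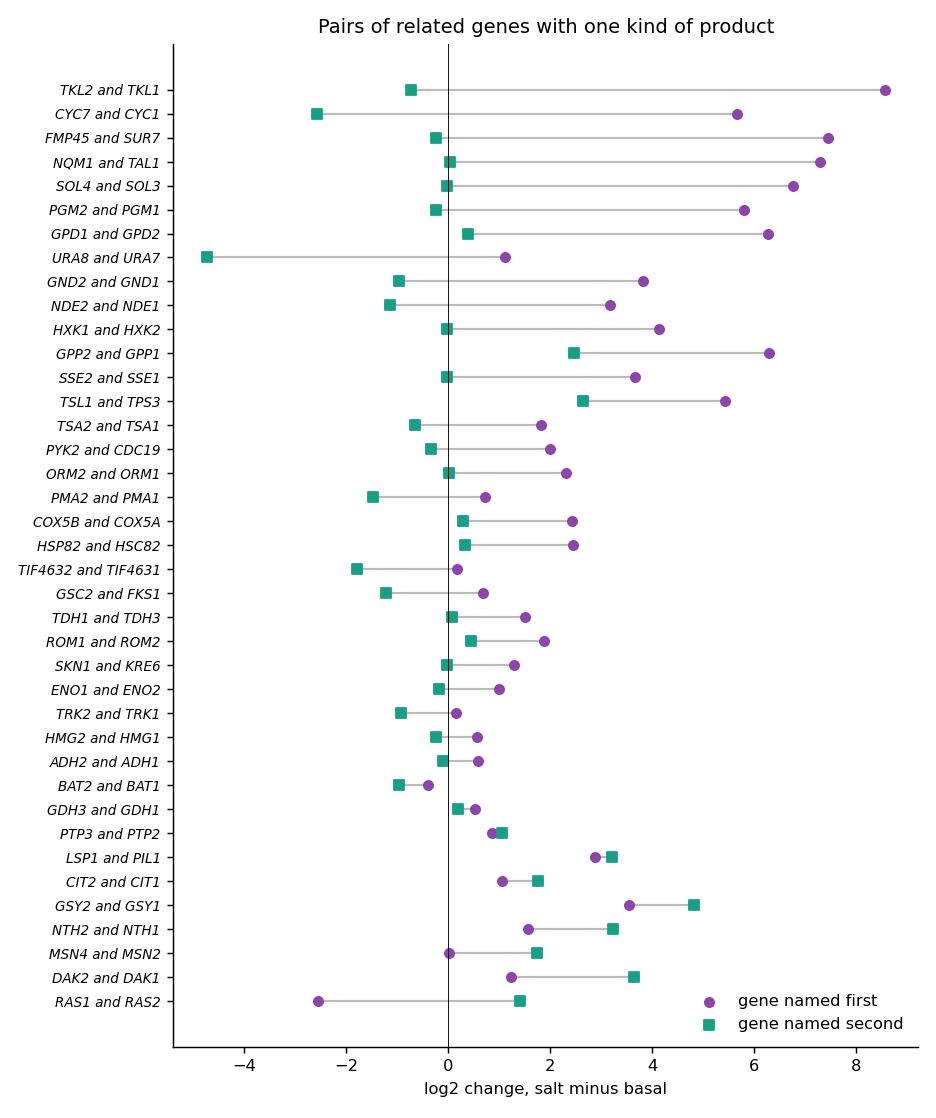
Change of both genes in each of 39 pairs (horizontal axis, log2 of salt over basal), with the first-named gene as a circle and the second as a square, ordered by the change of their ratio. The widest gap is that of TKL2 and TKL1, at 8.57 and -0.74, and RAS1 and RAS2 lie at the other end, at -2.55 and 1.41.

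Defences against oxidants and aldehydes rose in part. Of 28 oxidant defence genes 18 rose and 4 fell: after CTT1 came GRX2, a glutaredoxin (2.51 ± 0.14), PRX1, the mitochondrial peroxiredoxin (2.17 ± 0.09), and TSA2. GPX2, a glutathione peroxidase, fell by 1.45 and TRX2, a thioredoxin under Yap1, was not called (0.01). Aldo-keto and methylglyoxal reductases rose in 9 of 11 cases and fell in 0, with GRE2 (4.82 ± 0.14) at 124 to 139 CPM basal and 3461 to 3962 CPM salt, GRE3 (4.4 ± 0.14) and YDL124W (2.74 ± 0.12) behind BDH2.

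Small stress proteins rose, and chaperones went both ways. Of 10 hydrophilins and small heat shock proteins 9 rose, with HSP12, a membrane-stabilising protein, at 26, 25.5 and 27.5 CPM basal and 4685, 4336 and 4423 CPM salt, HSP42 at 5.75 ± 0.14 and SIP18 at 4.56 ± 0.17. NOP6, a hydrophilin by sequence that works in 40S assembly, fell by 2.24. Of 22 chaperones of the Hsp70, Hsp90 and Hsp100 families 13 rose and 6 fell. SSE2, HSP104, HSP78 and SSA4, which act on damaged proteins in the cytosol and mitochondria, rose by 3.66 ± 0.10, 3.51 ± 0.12, 2.98 ± 0.10 and 2.80 ± 0.12. SSB1, SSB2, SSZ1 and ZUO1, which meet new chains at the ribosome, fell by 1.66, 0.93, 1.07 and 1.14. All 8 subunits of the CCT chaperonin, which folds actin and tubulin, fell, by 0.26 to 0.83, and the smallest of these calls, CCT6 (-0.26 ± 0.11), was lost in 5 alternative fits, among them those without basal replicate 2 (-0.20) or 3 (-0.25) or salt replicate 2 (-0.20).

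Genes of protein breakdown and of autophagy, by which the cell digests its own parts, rose more often than they fell. Proteasome genes rose in 22 of 33 cases and fell in 2, with a median of 0.32, and only RPN4, the activator of proteasome genes, rose by more than 2-fold (1.43 ± 0.10). Autophagy genes rose in 22 of 28 cases and fell in 2, with a median of 1.21. ATG8, the ubiquitin-like protein that marks the forming autophagosome, went from 2.14, 2.48 and 4.10 CPM to 21.6, 29.7 and 24.0 CPM (3.11 ± 0.23), and ATG29, ATG19 and ATG7 rose by 2.59 ± 0.21, 2.18 ± 0.08 and 2.15 ± 0.11.

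At the cell surface, eisosome genes, which shape furrows of the plasma membrane, rose in 9 of 10 cases and fell in 0. The core proteins PIL1 and LSP1 went from 411 to 470 CPM to 3821 to 4261 CPM (3.21 ± 0.13) and from 337 to 365 CPM to 2456 to 2825 CPM (2.88 ± 0.12), and SUR7 was not called (-0.23). Wall proteins split, with 6 of 22 higher and 11 lower. SED1, the major wall protein of resting cells, rose from 4066, 4794 and 5480 CPM to 14974, 12519 and 12242 CPM (1.47 ± 0.16), CWP1 rose by 4.05 ± 0.17, PIR3 by 2.25 ± 0.10 and YGP1 by 1.98 ± 0.12. UTR2 and CIS3 fell by 1.92 and 1.48. Among enzymes of glucan and chitin GAS1, which elongates glucan, fell from 3486 to 3901 CPM to 836 to 1097 CPM (-1.99 ± 0.14), and CHS1, the repair chitin synthase, rose by 1.69 ± 0.12. The cell wall integrity pathway had 8 of 16 genes higher and 1 lower, with ROM1 at 1.88 ± 0.14, MTL1 at 1.85 ± 0.11 and its kinase SLT2 at 0.93 ± 0.08.

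Lipid synthesis leaned down for sterols. Ergosterol genes fell in 15 of 25 cases and rose in 3, with ERG3 at -1.86 ± 0.12, ERG11 at -1.61 ± 0.12, ERG25 at -1.57 ± 0.11 and IDI1 at -1.23 ± 0.10. For sphingolipids 11 of 23 genes rose and 5 fell. ORM2, a brake on the first step, rose by 2.31 ± 0.13 and the ceramidase YPC1 by 3.41 ± 0.14. AUR1 and SUR2, enzymes of sphingolipid synthesis, fell by 1.70 ± 0.10 and 1.45 ± 0.09.

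Genes of cell division fell more often than they rose. Cyclins and cell cycle regulators had 12 of 23 lower and 7 higher. The mitotic cyclins CLB1 and CLB2 went from 92.5 to 102 CPM to 23.7 to 26.6 CPM (-1.93 ± 0.10) and from 62.7 to 97.1 CPM to 22.1 to 26.9 CPM (-1.72 ± 0.16), the S-phase cyclin CLB6 fell by 1.97 ± 0.21, the G1 cyclins CLN1 and CLN2 fell by 0.94 and 0.92, and CLN3, the first G1 cyclin, rose by 0.69. Genes for separating daughter from mother fell in 7 of 8 cases, DSE4 most (-1.79 ± 0.11), and the chitinase CTS1 was not called (0.09, interval -0.18 to 0.35). Histone genes fell in 7 of 10 cases and rose in 0, by at most 0.88 (HHO1). Mating genes had no common direction, with 9 of 24 higher and 8 lower. FAR1, which arrests the cycle for mating, fell from 126 to 144 CPM to 18.0 to 19.6 CPM (-2.82 ± 0.10) and MFA2, a pheromone gene, by 2.39 ± 0.15, while PRM1, FUS2 and FUS1, used in cell fusion, rose by 1.54 ± 0.16, 1.29 and 1.26.

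The fall of ribosome assembly covered every listed gene. All 49 genes of the small subunit processome and 40S assembly fell, with a median of -3.0, and all 61 of 60S assembly fell, with a median of -3.45, against a median of 0.02 over all tested genes. Their summed shares went from 0.803% to 0.95% down to 0.105% to 0.126%, and from 0.807% to 1.02% down to 0.0979% to 0.123%. The RNA polymerases fell to different degrees. Of 8 genes of RNA polymerase I, which transcribes ribosomal RNA, 7 fell, with RPA135 going from 839, 879 and 928 CPM to 63.9, 53.7 and 56.7 CPM (-3.92 ± 0.11) and RPA43 (-4.16 ± 0.18), RPA34 (-3.87 ± 0.31) and RPA190 (-3.73 ± 0.11) beside it. RPA14 alone was not called (0.06, interval -0.24 to 0.36). All 10 genes of RNA polymerase III, which makes tRNA and 5S RNA, fell with a median of -1.78, and all 7 subunits that polymerases share fell with a median of -1.97. For RNA polymerase II, which makes mRNA, 5 of 7 genes fell by 0.30 to 0.69 and RPO21, its largest subunit, stood at 411 to 473 CPM basal and 436 to 477 CPM salt (0.00, interval -0.21 to 0.22). The call of RPB7 (-0.30 ± 0.11) was lost in 5 alternative fits, among them those without basal replicate 2 or 3 or salt replicate 2 or 3 (-0.29 to -0.22).

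Ribosomal proteins fell by less than the factors that assemble them. Of 81 genes of the large subunit 78 fell (median -1.11) and all 57 of the small subunit fell (median -1.13). Their summed shares went from 11.8% to 12.3% of counts down to 5.72% to 6.17% for the large subunit and from 9.68% to 10.4% down to 4.71% to 5.17% for the small. The largest falls were in minor copies such as RPL7B (118, 113 and 117 CPM to 14.6, 16.4 and 13.3 CPM, -2.98 ± 0.11), RPL22B (-2.63 ± 0.13), RPS9A (-2.56 ± 0.09) and RPS27A (-2.40 ± 0.12). RPL15B rose, from 33.4 to 36.6 CPM to 55.2 to 56.9 CPM (0.69), and RPL41A and RPL41B were not called. Of 72 genes of mitochondrial ribosomal proteins 30 were lower and 7 higher (41.7% and 9.72%), with a median of -0.18, and the largest change among them was a rise, of MRP8 (2.07 ± 0.10). Regulators of these genes went both ways. TOD6, a PAC-binding repressor, fell from 90.5, 96.3 and 95.1 CPM to 6.58, 9.24 and 8.78 CPM (-3.51 ± 0.13), while its relative DOT6 rose by 0.49, STB3, an RRPE-binding repressor, rose by 1.07 ± 0.12 and CRF1, a corepressor of ribosomal protein genes, by 2.59 ± 0.19.

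Translation genes fell too. Of 37 translation factors 32 fell and 1 rose, with YEF3, the fungal elongation factor, at 8737, 9780 and 10367 CPM basal and 1951, 1583 and 1599 CPM salt (-2.49 ± 0.15) and TIF4631, a scaffold of initiation, at -1.79 ± 0.10. Aminoacyl-tRNA synthetases fell in 16 of 18 cases, MES1 most (-1.83 ± 0.09). All 18 tRNA modification genes fell, with a median of -1.75, TRM1 by 3.87 ± 0.14 and TRM82 by 3.26 ± 0.12 after TRM11 and TRM2.

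**Figure D5:**
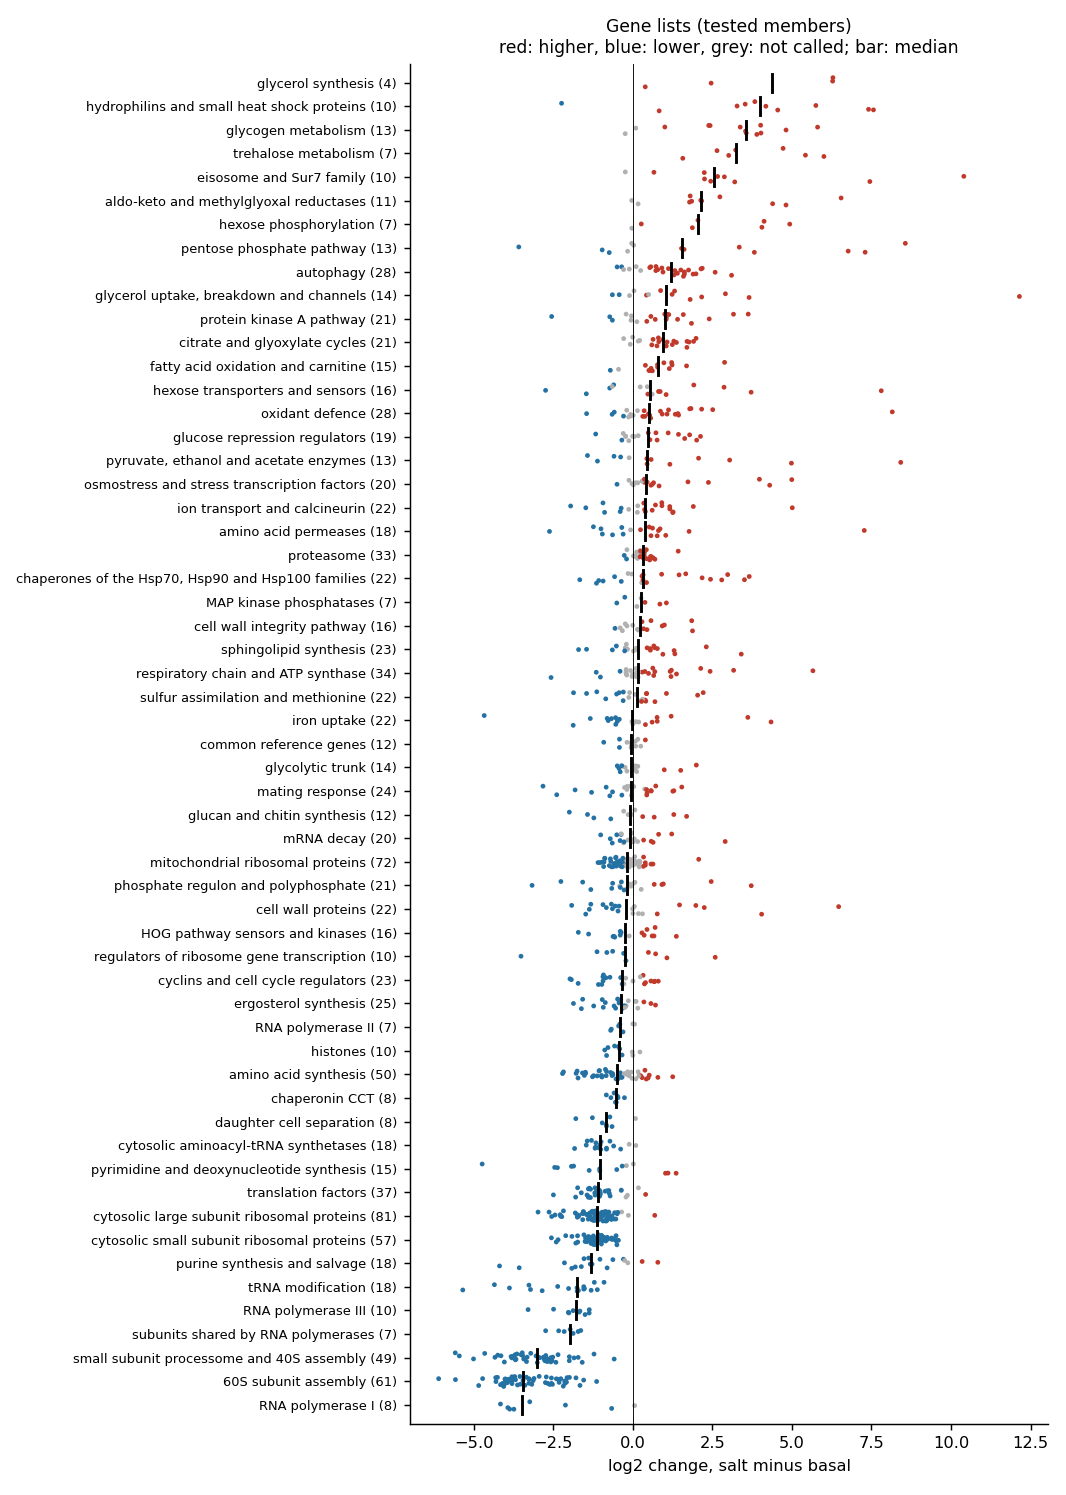
Change of each tested member of the 57 gene lists (horizontal axis, log2 of salt over basal), ordered by median (bar), with the number of tested members in brackets and points in red (higher), blue (lower) or grey (not called). RNA polymerase I and 60S assembly lie lowest, at medians of -3.49 and -3.45, and glycerol synthesis highest, at 4.37.

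Nucleotide synthesis fell with the ribosome genes. Purine genes fell in 14 of 18 cases and rose in 2: the adenine deaminase AAH1 went from 278, 292 and 302 CPM to 15.5, 15.7 and 16.6 CPM (-4.19 ± 0.09), the salvage enzyme HPT1 fell by 3.57 ± 0.11 and IMD4 and GUA1, which make GMP, by 2.15 ± 0.14 and 1.91 ± 0.13. Pyrimidine and deoxynucleotide genes fell in 10 of 15 cases, with URA7 at 512, 498 and 517 CPM basal and 18.1, 20.1 and 19.2 CPM salt, and RNR1, the large subunit of ribonucleotide reductase, at -2.45 ± 0.10. RNR3, its damage-inducible copy, rose by 1.03, and URA8 and URA10 rose too.

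Amino acid synthesis fell in 31 of 50 genes and rose in 8, with LEU9 (-2.21 ± 0.09), HIS1 (-2.18 ± 0.09) and ILV5 (-1.75 ± 0.12) among the largest changes and GCN4, the activator of these genes, at -1.78 ± 0.12. Sulfur and methionine genes had 9 of 22 higher and 8 lower: MET28 and MET13 rose by 2.21 ± 0.17 and 2.04 ± 0.09, and SAM1 and CYS4, which use methionine and homocysteine, fell by 1.86 ± 0.12 and 1.45 ± 0.10. Amino acid permeases rose in 10 of 18 cases and fell in 7, the general permease GAP1 rising by 1.77 ± 0.10 and MMP1, the S-methylmethionine permease, falling by 2.62 ± 0.14. Phosphate genes were mixed, with 5 of 21 higher and 9 lower. PHO3, a secreted phosphatase, fell from 816 to 1049 CPM to 97.6 to 119 CPM (-3.16 ± 0.13) and PHM8, a phosphatase of nucleotides, rose by 3.72 ± 0.14. Iron uptake genes had 7 of 22 higher and 10 lower, FRE1 and the permease FTR1 (-1.87 ± 0.13) falling and FIT1, an iron-binding wall protein, and FRE4 rising by 4.35 ± 0.12 and 3.62 ± 0.14.

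Genes of mRNA decay had 6 of 20 higher and 7 lower. The activators of decapping EDC2 and EDC1 rose by 2.90 ± 0.14 and 1.23 ± 0.15, and DCP1, a subunit of the decapping enzyme, fell by 1.01 ± 0.15. Of 12 genes often used as references in yeast, 8 were not called. ACT1 was at 3715, 4052 and 4666 CPM basal and 4653, 3773 and 3564 CPM salt (-0.05, interval -0.37 to 0.27), so the groups overlapped, and ALG9, TFC1, UBC6, PGK1, TDH3, IPP1 and TUB1 were not called either. SPT15, the TATA-binding protein, fell by 0.91 ± 0.08, TUB2 by 0.42 ± 0.10 and TAF10 by 0.42 ± 0.11. PDA1 rose by 0.40 ± 0.14, a call that was lost without basal replicate 1 (0.28) and with replicates as a block (0.40), and TUB1 (-0.18) was called without salt replicate 1 (-0.23).

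Beyond the named genes the response differed by kind of feature. Of 206 tested open reading frame identifiers that the RefSeq annotation does not carry, 80 were higher and 20 lower, with a median of 0.50. Protein-coding genes with no gene name had 207 of 466 higher, 111 lower and a median of 0.32, and those within 20 kb of a chromosome end 59 of 152 higher, 27 lower and a median of 0.17. Of 44 tested snoRNA and tRNA identifiers 2 were higher and 19 lower, but poly(A) selection leaves little of such RNA, and they and the other identifiers that are not protein-coding open reading frames took under 0.06% of the counts in each library. Intron-containing genes other than ribosomal protein genes were at the background, with 60 of 191 higher and 66 lower. The strand setting of the counting is not given in the sources used here, so changes of open reading frames that overlap another gene are uncertain.

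Changes of adjacent genes were correlated most in divergent pairs, which share an upstream region. Across 1447 divergent pairs of adjacent genes the correlation of the log2 changes was 0.28, across 2702 tandem pairs 0.15 and across 1442 convergent pairs 0.01, as a description over gene pairs of the same libraries. In divergent pairs 27.3% of the genes that rose at least 2-fold had a partner that did so too, against 14.2% of all genes in such pairs. The shares were 26.9% against 16.9% in tandem pairs, which is close to the divergent share, and 13.1% against 13.2% in convergent pairs. XBP1 stands back to back with SGA1, a glucoamylase that rose by 3.84, over 753 bases on chromosome IX, and SIP18 with PAI3, a protease inhibitor that rose by 3.29, over 650 bases on chromosome XIII. STL1 and FIT1 are 3104 bases apart on chromosome IV, and GPD1 and DIA3 (3.25) 1967 bases.

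From next to nothing rose 9 genes, with at most 3 counts in the 3 basal libraries together, and 0 genes fell to so low a level in salt. YPL222C-A went from 3 counts to 65, 84 and 117 counts, a depth-scaled ratio of 78.9 with a 95% exact counting interval of 26.7 to 385. AIM26 went from 3 counts to 197 over the 3 salt libraries (ratio 58.4, interval 19.7 to 286), YOR345C from 3 to 160 and YML099W-A from 3 to 125. YGR051C went from 1 count to 126, YOL085C from 2 to 102 and YGL063C-A from 1 to 69. YNL097W-A had 0 basal counts and 36, 26 and 44 salt counts, a ratio of 31.4 to a floor of 3 counts for the group. The lower end of its 95% exact counting interval, which uses 0 basal counts and no floor, was 25.1. HSP32 went from 2 to 90 counts, but its sequence is shared with close copies. YOL085C lies back to back with PHM7, 341 bases away, and most of these identifiers have no gene name. The intervals and the floor cover counting error only. The genes were picked for their call and their low basal counts, and they passed the count filter through the salt libraries alone. Their number and ratios are thus a description.

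Experiment 2 repeated the WT response with another kit, and the difference of the responses was tested in 1 model over the 12 WT libraries and 6092 genes. The difference was called in 157 genes (2.58%), with 64 values larger and 93 smaller (signed) in experiment 1. Of the 1765 genes that changed at least 2-fold in experiment 1, 1641 were called in the same direction in experiment 2, 0 in the opposite direction, and 117 had a called difference. The calls of experiment 2 came from the same model over the 12 libraries. The share of all genes called in experiment 2 is not given here, so these counts are a description. The experiments differ in library kit and in counts of LEU2, URA3 and MET17, and these cannot be told apart. PHO84, the high-affinity phosphate transporter, differed most: it changed by -1.57 in experiment 1 (9.18 to 11.1 CPM basal, 3.08 to 3.80 CPM salt) and by -5.94 in experiment 2, a difference of 4.36 ± 0.46. FIT1 rose by 4.35 and by 2.32, a difference of 2.02 ± 0.33. In the other direction, TRM11 changed by -5.34 in experiment 1 and -2.64 in experiment 2 (difference -2.71 ± 0.28), URA7 by -4.73 and -2.50 (-2.23 ± 0.19) and RPA135 by -3.92 and -2.12 (-1.81 ± 0.33). HSP12 rose by 7.41 and by 9.69 (-2.28 ± 0.31) and PHM8 by 3.72 and by 5.97 (-2.25 ± 0.37). The number of such differences depended on the fit and on single libraries. It was 154 larger and 229 smaller with DESeq2, 4 and 13 with the replicate block, and 24 and 98 with scaling by total counts. It was 164 and 175 without basal replicate 1 of experiment 2, 111 and 137 without its salt replicate 2, and 359 and 455 without both. Leaving out any other single library gave 13 to 71 larger and 49 to 114 smaller values.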

How the data were processed

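RNA of 6 WT libraries of experiment 1, and of the 6 WT libraries of experiment 2 for a single comparison, was analysed from the tables that the authors deposited, which hold raw counts per gene for 7126 identifiers, the same in both. Per the submitters' processing notes, the reads were aligned to R64 and counted with HISAT2 2.1.0 and featureCounts 1.5.1. Not given in the sources used here are the annotation release, the strand setting and the rule for reads that match several genes. All 18 value columns matched a library by name. RefSeq (R64) named 6079 identifiers and marked 6007 as protein coding. HOG1-KO libraries were not analysed here. Results for a few named genes are not reported here.

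Replicates are biological per the labels' protocols. In edgeR 4.0.16 (R 4.3.3) genes were kept by filterByExpr, which left 5878 (353 identifiers had 0 counts in all 6 libraries), scaled by TMM (factors 0.907 to 1.07) and fitted with a robust quasi-likelihood model on the 6 libraries, with the Benjamini-Hochberg adjustment over all genes tested. The common biological coefficient of variation was 10.8%. No pair of replicates agreed within sampling noise (chi-square per degree of freedom 6.53 to 29.3). In a simulation with 5769 genes, 64, 67 and 64 genes were changed 1.5-fold, 2-fold and 4-fold. Of these changes 67.2%, 98.5% and 100% were recovered, with 14 false calls. Far fewer genes changed in it than the 4069 called in the data. These shares therefore do not give the recovery or the false calls of the real comparison. The difference between experiments was a contrast of group means over the 12 WT libraries.

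The members, the 57 gene lists (1219 genes, 1216 tested, written from textbook knowledge, 3 symbols unmatched), the 39 pairs and the motifs were chosen with earlier results of these data known. Genes were named by rule: the 20 called genes that rose most and the 20 that fell most, given a mean of 3 or more in log2 CPM, groups that do not overlap and a standard name; up to 4 called genes of largest change per list, and all members of short lists; the 10 largest gains and losses in CPM; genes with at most 3 basal counts; and strain markers. Other list members and pair members were named after their values were seen. Ratios within pairs used CPM with 0.1 added. Adjacent genes are neighbours in RefSeq order. Alternatives were RLE scaling, scaling by total counts, no filter, a filter of 10 CPM in 3 libraries, DESeq2 1.42.0, the replicate number as a block and leaving out each library. Other steps ran in Python 3.11.15 (pandas 2.3.3, numpy 2.4.6, scipy 1.17.1) with plots by matplotlib 3.10.9.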

Additional observations from a re-analysis of the deposited data

Results flagged for a closer look

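Among the 40 genes with the largest salt changes in experiment 1, 13 had a change that differed between the experiments by the test of the difference itself (edgeR's quasi-likelihood test on the 12 WT libraries, Benjamini-Hochberg adjusted over 6092 genes), against 157 of all 6092 genes (2.58%). Under the replicate block only 17 differences were called in all. All 13 values, experiment 1 minus experiment 2 on the log2 scale, were negative: TRM11 at -2.71, HSP12 at -2.28, URA7 at -2.23, ENP2 at -2.22, MRD1 at -1.78, SYO1 at -1.57, UTP23 at -1.54, SSF1 at -1.48, FRE1 at -1.47, NOG2 at -1.21, RRP12 at -1.11, KRE33 at -1.05 and TRM2 at -0.98. Of these, 12 fell further in experiment 1, and HSP12 rose less far there. The genes were picked by their changes in experiment 1, so their number and direction are a description. Library kit and strain markers differ between the experiments, and their part in these differences was not tested.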

How the results depend on the processing

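For salt against basal in experiment 1, no call turned round under any of 12 alternatives. The alternatives called 1891 to 2147 genes higher and 1785 to 2043 lower, and at least 2-fold changes numbered 776 to 978 upward and 749 to 874 downward. Of 320 genes named by rule, 298 were called. Of these 298, 10 lost their call under at least 1 alternative and 0 changed direction, and 3 genes named by rule gained a call. Genes that the text names outside the rule were not part of this count. The medians of 3 lists near 0 (glycolytic trunk, cell wall proteins, iron uptake) changed sign under at least 1 alternative. With the replicate number as a block 1896 genes were higher and 1831 lower. The deviations of same-numbered libraries correlated at -0.42, 0.03 and -0.35, so the numbers were not taken to pair the samples.

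The difference between the experiments, 64 larger and 93 smaller values in the main fit, was less stable in number. DESeq2 gave 154 and 229, scaling by total counts gave 24 and 98 (and moved the median difference to -0.22), and the replicate block gave 4 and 13. Omitting both basal replicate 1 and salt replicate 2 of experiment 2 gave 359 and 455. Leaving out single libraries gave 13 to 164 larger and 49 to 175 smaller values, and the cause was not tested. Depth limits genes of a few CPM, and reads shared by close copies limit pairs and families.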
